A study of Mus musculus with 8 samples.

Results

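The clustered replication-dependent histone genes are the mouse genes whose symbols begin with Hist1h, Hist2h, Hist3h or Hist4h. Every row with such a symbol was taken, which gave 68 of 24421 gene symbols in the count tables. By symbol they belong to the linker histone H1 (6 genes) and to the core histones H2A (18), H2B (19), H3 (12) and H4 (13). The H2B symbols include Hist3h2bb-ps, annotated as a processed pseudogene, which stays in all counts and sums below. The Hist1 cluster on chromosome 13 held 54 of them, the Hist2 cluster on chromosome 3 held 10, the Hist3 cluster on chromosome 11 held 3, and Hist4h4 on chromosome 6 stood alone.

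The libraries were RNA-seq of naive CD4+ T cells isolated with a kit from the spleens of male C57BL/6 mice 6 to 8 weeks old, with 4 libraries titled E1KO and 4 titled E1WT. The study set Pcbp1fl/flCd4-Cre mice against wild-type mice; Pcbp1 codes for an RNA-binding protein, and Cd4-Cre deletes the floxed gene in developing T cells of both the CD4 and the CD8 lineage. The genotype field disagreed with the title in all 8 samples: it gave Pcbp1+/+Cd4-Cre (WT) for the libraries titled E1KO and Pcbp1fl/flCd4-Cre (KO) for those titled E1WT. Pcbp1 itself had 38.8, 39.8, 41.2 and 42.4 CPM (counts per 1000000 reads counted in genes) in the libraries titled E1KO, against 218, 240, 222 and 196 CPM in those titled E1WT (log2 fold -2.49 ± 0.07 SE, edgeR adjusted p = 2.57e-09), so its level followed the titles. Groups are named by title throughout, and every direction below is that of the titles. The labels do not say that replicates came from separate mice, so the p-values measure the spread between these samples, which may be technical.

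The 8 libraries held 28264655 to 36738202 reads counted in genes. The labels give male mice only, yet Xist, the RNA that coats an inactive X chromosome, had 378 to 433 CPM in E1KO and 0.544 to 2.82 CPM in E1WT. The Y-linked genes Ddx3y, Eif2s3y, Kdm5d and Uty were lower in E1KO by log2 folds of -0.996, -1.02, -1.08 and -0.98, each with no overlap between the groups. Differences between the titles cannot be told apart from this difference in sex-linked RNA.

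Replication-dependent histone genes supply the proteins that package newly copied DNA, and dividing cells make most of their mRNA in S phase. Unlike other mRNAs, these transcripts normally end in a short stem-loop in place of a poly(A) tail; the stem-loop-binding protein SLBP holds it through processing, export and translation. Some clustered genes can also use a poly(A) site further downstream, in particular in cells that have left the cell cycle, and naive T cells are mostly resting. Whether poly(A) RNA was selected for these libraries is not given in the sources used here, so the levels below are those of the transcripts these libraries captured.

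The stem-loop could be read in the reference transcripts. A motif of the arms GGCNCT and AGNGCC around the loop TTTN (N is any base), searched on the transcript's own strand in GENCODE M21 transcripts (GRCm38), occurred in 42 of the 68 histone genes (61.8%) and in 5 of 55382 other genes (0.00903%), among them H2afx. Of the 26 genes with no match, 17 had a model of at most 500 bases. The 16 bases took 5 forms: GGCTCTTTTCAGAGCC in 26 genes, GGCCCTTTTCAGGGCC in 7, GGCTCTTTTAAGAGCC in 6, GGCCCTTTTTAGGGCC in 2 and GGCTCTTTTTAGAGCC in 1. Hist1h1d, described below after its values were seen, also holds the motif, and its model runs on for 4884 bases past it. Its sequence is not shown. The sequences printed here are DNA from the GENCODE M21 transcripts, 5′ to 3′. They come from other members described below that hold the motif, with the stem-loop in capitals:

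Hist1h1c: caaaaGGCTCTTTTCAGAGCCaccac
Hist1h1e: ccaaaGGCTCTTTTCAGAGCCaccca
Hist3h2a: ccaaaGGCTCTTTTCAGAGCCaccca
Hist2h2ac: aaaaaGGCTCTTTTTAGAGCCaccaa
Hist3h2ba: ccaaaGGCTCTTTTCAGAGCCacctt
Hist1h3e: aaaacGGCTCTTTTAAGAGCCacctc
Hist1h4i: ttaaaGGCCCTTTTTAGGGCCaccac
Hist1h4d: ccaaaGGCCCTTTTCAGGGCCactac
Hist2h4: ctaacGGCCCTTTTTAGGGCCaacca
Hist4h4: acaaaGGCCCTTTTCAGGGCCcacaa

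The motif fixed every base but 1 in each arm and the last of the loop, so these stem-loops could differ only there. The search did not require the free bases of the arms to pair. In these 10 genes the free arm bases were T with A or C with G, and the loop ended in C, A or T. The GENCODE models of these 10 genes run on past the stem-loop, by 57 bases in Hist2h2ac and by 2445 bases in Hist4h4. Of all 42 genes with the motif, 21 had models that continued for more than 100 bases past the loop, and 14 of these genes reached a mean of 0.5 CPM. The other 21 genes had a model that ended within 100 bases, and 3 of them reached it (Hist1h3c, Hist1h4h and Hist2h2ac). The median mean level was 0.806 CPM where the model ran on and 0.122 CPM where it ended early; divided by the length of the model the medians were 0.364 and 0.264 CPM per kb. The poly(A) signal AATAAA lay in the last 40 bases of at least 1 model in 15 genes, of which 8 reached 0.5 CPM (Hist1h1c, Hist1h2ae, Hist1h2be, Hist2h2be, Hist2h4, Hist3h2a, Hist3h2ba and Hist4h4). Of the 53 genes without it, 15 did. These are descriptions of the annotation beside the levels, and the length of a model also sets how many reads can be assigned to it.

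Most of the 68 genes were near or at 0. In all 8 libraries 13 had no count. In 10 of these, fewer than 50% of 75-base stretches of the transcripts are found in no other gene. For these genes 0 counts say little of the level, and nothing for Hist2h2aa2 and Hist2h3c1, where no stretch is unique. The other 3 were Hist1h1t, Hist1h2aa and Hist1h2ba, genes known for their expression in testis. For them 0 counts allow up to 0.0817 to 0.106 CPM by library (3 counts, counting error only). In Hist1h2ba only 66.8% of the stretches are unique, so for this gene the limit covers reads from those stretches alone. A further 32 had some counts and a mean under 0.5 CPM, and 23 (33.8%) reached a mean of 0.5 CPM over the 8 libraries, which corresponds to 14.1 to 18.4 reads in a library. Hist1h4b with 0.513 CPM was just inside that limit and Hist1h2bj with 0.497 CPM just outside. Summed over all 68 genes the level was 61.1, 62.0, 63.2 and 70.8 CPM in E1KO, against 58.7, 69.6, 63.5 and 57.1 CPM in E1WT. The sums overlapped, and the ratio of the means was 1.03 ± 0.117 (SD). Hist2h2be alone supplied 23.8% of the summed CPM, Hist2h2be, Hist3h2a and Hist1h1c together 50.3%, and the 8 genes with the highest CPM 70.8%.

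**Figure D1:**
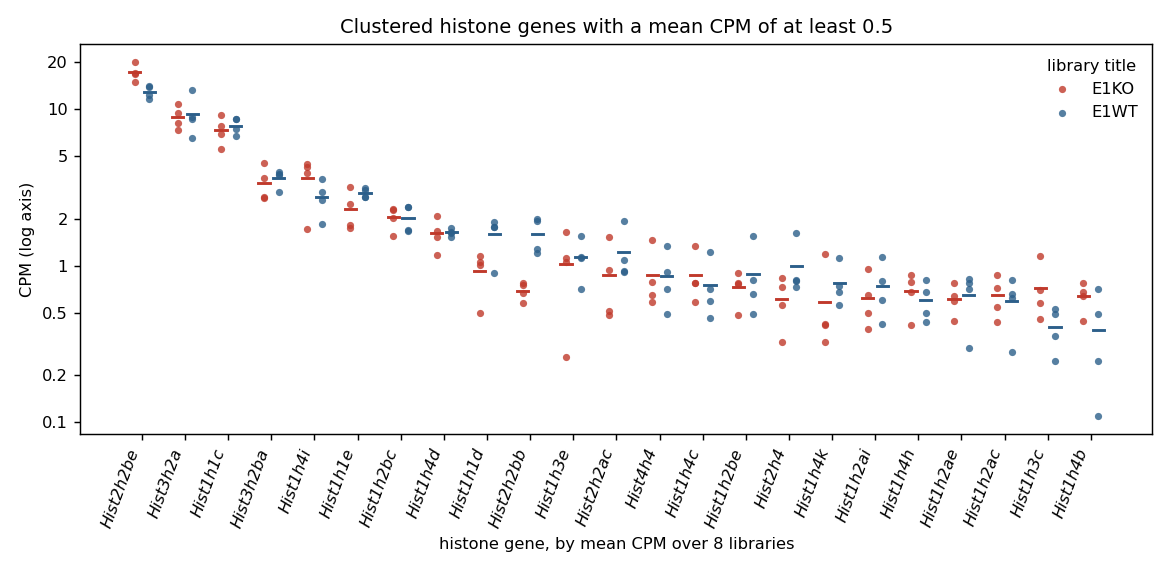
CPM (log axis) of the 23 clustered histone genes with a mean of at least 0.5 CPM, ordered by that mean; points are single libraries, 4 titled E1KO in red and 4 titled E1WT in blue, and bars are group means. Hist2h2be has the highest mean CPM of the 23, with its 4 E1KO libraries at 14.95 to 20.1 CPM above the 4 E1WT libraries at 11.6 to 14.04 CPM, while most other genes overlap.

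Near-identical coding sequences limit what a count of a single histone gene means. Cut into windows of 75 bases, the read length, 62 of the 68 genes shared at least 1 window with another gene in the GENCODE M21 transcripts, and 2 (Hist2h2aa2 and Hist2h3c1) shared all. The 6 that shared none were Hist1h1a, Hist1h1b, Hist1h1t, Hist1h2aa, Hist2h2be and Hist2h4. The reads came in pairs, which windows of 75 bases do not take into account. A read that maps equally well to several copies is not counted for any of them in the deposited tables, which hold a separate row for such alignments; that row held 11.1 to 11.96% in E1KO and 12.6 to 13.2% in E1WT of all counts listed. Fewer than 50% of windows were unique in 28 genes, of which 3 reached 0.5 CPM (Hist1h2ai, Hist1h3e and Hist1h4k), 10 were at 0 and the median was 0.0876 CPM. Of the 40 other genes, 20 reached 0.5 CPM, 3 were at 0 and the median was 0.485 CPM. Overlap with a gene of another name adds to this: 24 of the 68 spans, and 10 of the 29 that were tested, overlap another GENCODE gene.

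**Figure D2:**
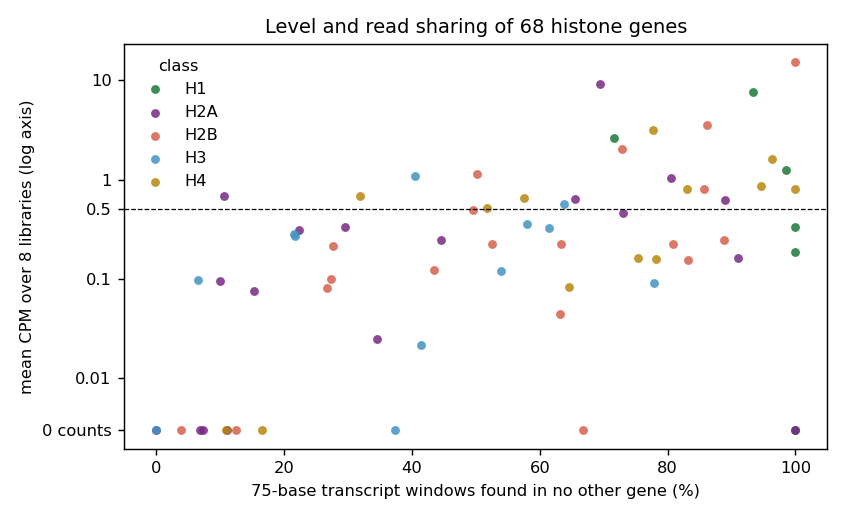
Mean CPM over 8 libraries (log axis, genes without a count drawn at the foot) against the percentage of a gene's 75-base transcript windows found in no other gene, for all 68 clustered histone genes coloured by class; the dashed line marks 0.5 CPM. Of the 28 genes with fewer than 50% unique windows, 3 lie on or above the line, against 20 of the other 40.

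After a filter on low counts, 29 of the 68 genes were tested (the 23 above and 6 with a mean under 0.5 CPM). Of these, 1 rose (Hist2h2be) and 1 fell (Hist2h2bb) in E1KO by edgeR's quasi-likelihood test with Benjamini-Hochberg adjustment over all 13333 tested genes. The called share was 6.90%, beside 23.3% of all tested genes (12.2% higher and 11.1% lower). Most of the tested histone genes had few reads, so the calls are also given by level. Among tested genes with a mean under 2 CPM, 1 of 22 histone genes (4.55%) was called, beside 15% of all genes at that level; at 2 CPM or more it was 1 of 7 (14.3%), beside 25.2%. The E1KO and E1WT libraries did not overlap in 2 of the 29 genes, beside 27.1% of all tested genes. The log2 fold was above 0 in 10 and below 0 in 19, with a median of -0.15, beside a median of 0.01 and 50.9% above 0 for all tested genes. In such bulk samples, a difference in the number of cells of a type and a difference in RNA per cell cannot be told apart.

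The 27 genes that were not called had adjusted p between 0.104 and 0.944 in edgeR, and log2 folds from -1.19 (Hist1h3f) to 0.78 (Hist1h3c). Their 95% intervals give the sizes of change that the test leaves possible. In 11 the interval stayed within 2-fold in both directions: Hist1h1c, Hist1h1e, Hist1h2ac, Hist1h2ae, Hist1h2bc, Hist1h4d, Hist1h4h, Hist1h4i, Hist3h2a, Hist3h2ba and Hist4h4. In 8 the interval reached 2-fold higher, and in 11 it reached 2-fold lower. Its half-width ranged from 0.34 on the log2 scale for Hist1h1c to 1.96 for Hist1h1b.

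**Figure D3:**
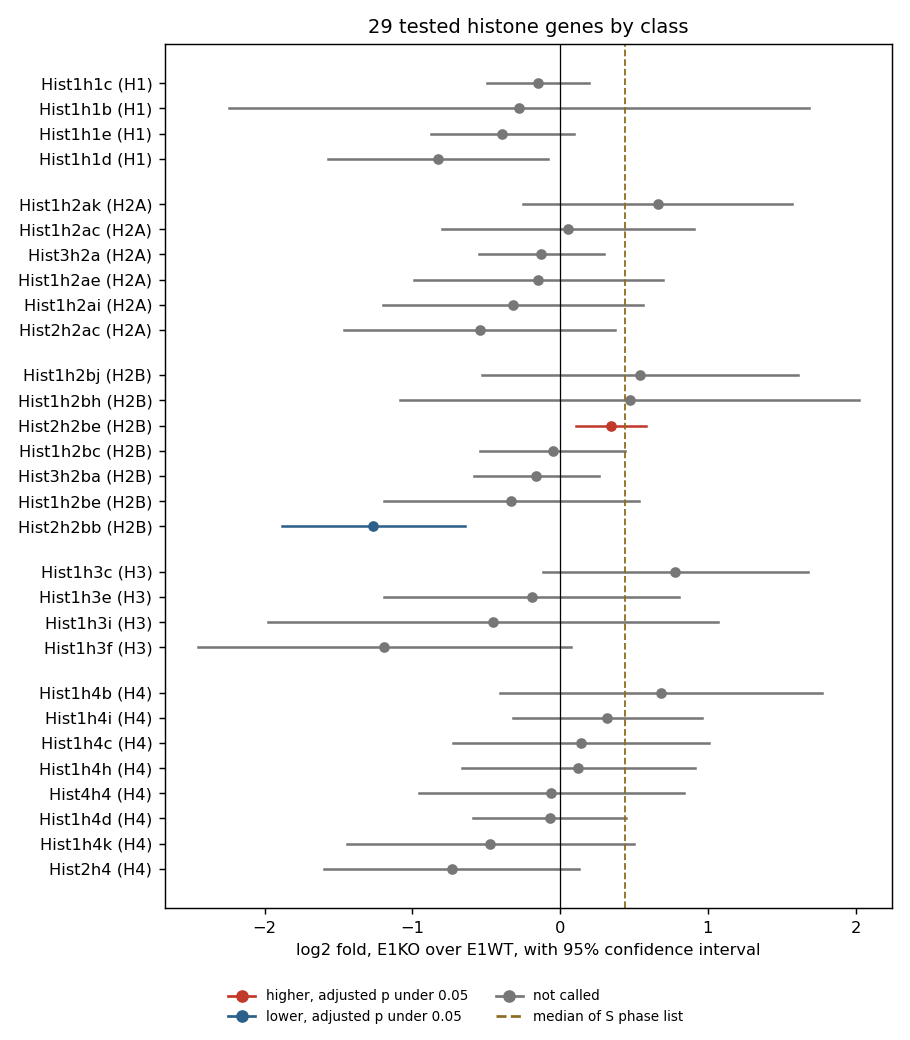
Log2 fold of E1KO over E1WT with 95% confidence intervals for the 29 tested histone genes, grouped by class; red is higher, blue is lower, grey is not called, and the dashed line is the median log2 fold (0.44) of 28 S phase genes. Of the 29 intervals, 10 lie wholly below the dashed line and 19 hold it. The like share of all tested genes is not given here, so the count does not set the histone genes apart.

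The linker histones bind the DNA between nucleosomes. Of 6 H1 genes, 3 reached 0.5 CPM, and all 4 that were tested had a log2 fold below 0 with none called. Hist1h1c (H1.2, chromosome 13, 23738808 to 23740367, + strand, GRCm38) had 6.93, 5.58, 7.83 and 9.20 CPM in E1KO, against 6.69, 8.68, 8.61 and 7.44 CPM in E1WT. The libraries overlapped widely (log2 fold -0.15 ± 0.16 SE, edgeR adjusted p = 0.525). Hist1h1e (H1.4, chromosome 13, 23620629 to 23622558, - strand) had 3.20, 1.81, 1.75 and 2.49 CPM in E1KO, against 3.04, 3.16, 2.75 and 2.73 CPM in E1WT. Of the E1KO libraries, 3 were below all 4 of E1WT and 1 above them (log2 fold -0.39 ± 0.22 SE, edgeR adjusted p = 0.227); its span overlaps Hist1h2be and Gm11398 on the same strand. Hist1h1d (H1.3, chromosome 13, 23553262 to 23560686, + strand), named here after its values were seen, had 1.06, 0.499, 1.01 and 1.15 CPM in E1KO, against 1.91, 0.898, 1.76 and 1.78 CPM in E1WT. Its unadjusted p was 0.0329 and its adjusted p 0.104 (log2 fold -0.83 ± 0.34 SE, edgeR), and without E1WT replicate 2, the E1WT library within the E1KO range, the adjusted p was 0.0406. The summed H1 level was 11.1 ± 2.36 CPM in E1KO and 12.9 ± 0.747 CPM in E1WT (SD, n = 4 each), with overlap.

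H2A and H2B form dimers on the outside of the nucleosome and are often coded in pairs of divergent genes. Of 18 H2A genes, 6 were tested and none called. Hist3h2a (chromosome 11, 58954685 to 58956830, + strand) had the highest level of the tested H2A genes in CPM and per kb (4.26 CPM per kb), with 7.41, 8.11, 10.8 and 9.44 CPM in E1KO, against 8.84, 13.3, 8.68 and 6.53 CPM in E1WT. The E1WT libraries spread more widely and enclosed the E1KO values (log2 fold -0.13 ± 0.19 SE, edgeR adjusted p = 0.674). The whole of its 2146-base span lies inside Trim17 on the same strand, so reads cannot be assigned to it beyond doubt. Hist2h2ac (chromosome 3, 96220361 to 96220880, - strand) had 1.53, 0.936, 0.487 and 0.516 CPM in E1KO, against 0.920, 1.93, 0.917 and 1.09 CPM in E1WT. The groups overlapped and the interval of the log2 fold of -0.54 ran from -1.46 to 0.37 (edgeR adjusted p = 0.381). The summed H2A level was 13.7 ± 1.45 CPM in E1KO and 13.9 ± 3.13 CPM in E1WT (SD, n = 4 each).

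H2B was the class with both calls. Hist2h2be (ENSMUSG00000068854.7, chromosome 3, 96221119 to 96223738, + strand) had 14.95, 16.996, 16.7 and 20.1 CPM in E1KO (513 to 662 reads), against 12.3, 13.9, 14.04 and 11.6 CPM in E1WT (348 to 510 reads). Every E1KO library was above every E1WT library. The means were 17.2 ± 2.14 CPM in E1KO and 12.96 ± 1.198 CPM in E1WT (SD, n = 4 each), a log2 fold of 0.34 ± 0.11 SE with a 95% interval of 0.11 to 0.58 and an edgeR adjusted p of 0.0396. This call is close to the threshold. The adjusted p was 0.0881 with the replicate number as a block, 0.120 without E1KO replicate 4, 0.0751 without E1KO 2, 0.0547 without E1KO 3, 0.102 without E1WT 1, 0.0525 without E1WT 3 and 0.0873 without E1WT 4, with log2 folds between 0.26 and 0.38. No window of its transcripts is shared with another gene. The stem-loop motif was not found in its transcripts, and AATAAA lies in the last 40 bases of at least 1 model.

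Hist2h2bb (ENSMUSG00000105827.1, chromosome 3, 96269752 to 96270132, + strand), in the same cluster, had 0.668, 0.748, 0.779 and 0.577 CPM in E1KO (19 to 24 reads), against 1.203, 1.93, 1.98 and 1.28 CPM in E1WT (34 to 71 reads). Every E1KO library was below every E1WT library. The means were 0.693 ± 0.0907 CPM in E1KO and 1.599 ± 0.412 CPM in E1WT (SD, n = 4 each), a log2 fold of -1.27 ± 0.28 SE with a 95% interval of -1.89 to -0.64 and an edgeR adjusted p of 0.00788. It was called under all 16 alternative settings, with adjusted p from 0.000514 to 0.0294. All 381 bases of its model lie inside the spans of Gm42743 on the same strand and Gm20628 on the opposite strand, 50.2% of its windows are unique, and the labels do not say that counting used the strand. Whether the reads belong to Hist2h2bb or to those transcripts cannot be told apart.

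The other 5 tested H2B genes were not called. Hist3h2ba (chromosome 11, 58948920 to 58949533, + strand) had 2.76, 3.62, 4.51 and 2.70 CPM in E1KO, against 3.96, 3.84, 3.77 and 2.95 CPM in E1WT. Hist1h2bc (chromosome 13, 23684199 to 23692908, + strand) had 2.005, 2.31, 1.56 and 2.28 CPM in E1KO, against 2.37, 2.37, 1.69 and 1.67 CPM in E1WT. Both overlapped between the groups, with log2 folds of -0.16 ± 0.19 and -0.05 ± 0.22 SE and edgeR adjusted p of 0.589 and 0.899. Per kb of model, Hist2h2be (5.75 CPM per kb) and Hist3h2ba (5.72 CPM per kb) stood at nearly the same level. The summed H2B level was 26.5 ± 2.14 CPM in E1KO and 22.9 ± 2.50 CPM in E1WT (SD, n = 4 each), with overlap.

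The starts of Hist2h2ac and Hist2h2be lie 239 bases apart and point away from each other. Their log2 folds were -0.54 (not called) and 0.34 (called), and the difference between these was not tested. RefSeq promoters (GRCm38.p6, from 250 bases before to 50 after the start) are shown for Hist2h2ac, whose promoter reaches past the start of Hist2h2be, and for Hist2h2bb. Capitals mark CCAAT or its reverse ATTGG, the octamer ATTTGCAT or its reverse ATGCAAAT, and TATAAA on the gene's strand:

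Hist2h2ac, chr3:96220831-96221130 (-): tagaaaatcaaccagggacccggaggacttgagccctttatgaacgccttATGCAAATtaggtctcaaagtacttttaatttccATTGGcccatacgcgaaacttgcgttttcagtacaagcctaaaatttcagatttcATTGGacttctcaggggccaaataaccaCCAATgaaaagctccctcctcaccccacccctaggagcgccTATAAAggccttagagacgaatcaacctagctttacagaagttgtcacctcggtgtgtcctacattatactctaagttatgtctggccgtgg
Hist2h2bb, chr3:96269450-96269749 (+): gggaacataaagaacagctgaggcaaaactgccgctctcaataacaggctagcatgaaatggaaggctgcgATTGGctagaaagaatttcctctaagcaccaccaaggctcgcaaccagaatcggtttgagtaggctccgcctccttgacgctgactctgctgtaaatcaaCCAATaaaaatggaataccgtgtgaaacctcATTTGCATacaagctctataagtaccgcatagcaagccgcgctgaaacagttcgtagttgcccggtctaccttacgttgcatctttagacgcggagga

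The Hist2h2ac promoter holds CCAAT letters at -166, -111 and -83, an octamer at -200 and TATAAA at -42, while that of Hist2h2bb holds CCAAT letters at -179 and -79 and an octamer at -48. RefSeq promoters were matched for 62 of the 68 histone genes. TATAAA (sense strand) was found in 30 of them (48.4%), beside 9.68% of 26963 other genes. CCAAT (both strands) was found in 53 (85.5%), beside 41.0% of the other genes; every H1, H2A, H2B and H3 promoter held it, and 3 of 12 H4 promoters did. The octamer (both strands), a binding site of POU-domain factors long known from H2B promoters, was found in 14 (22.6%), beside 1.92% of the other genes; these were 7 of 18 H2A and 7 of 16 H2B promoters. Promoters of divergent pairs share sequence, so these are not independent counts.

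H3 and H4 form the tetramer at the centre of the nucleosome. Of 12 H3 genes 4 were tested, and of 13 H4 genes 8, with none called. Hist1h3e (chromosome 13, 23561534 to 23562369, - strand), the H3 gene with the highest level per kb (1.28 CPM per kb), had 1.06, 1.12, 0.260 and 1.64 CPM in E1KO, against 1.56, 0.708, 1.13 and 1.12 CPM in E1WT. The lowest value of either group came from E1KO replicate 3, and the groups overlapped (log2 fold -0.19 ± 0.46 SE, edgeR adjusted p = 0.800). Hist1h4i (chromosome 13, 22040636 to 22041362, - strand), the tested H4 gene with the highest CPM and the highest level per kb (4.37 CPM per kb), had 1.73, 3.93, 4.29 and 4.49 CPM in E1KO, against 1.84, 3.57, 2.61 and 2.95 CPM in E1WT. E1KO replicate 1 was the lowest of all 8 and the other three of E1KO were the highest (log2 fold 0.32 ± 0.29 SE, edgeR adjusted p = 0.462).

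Hist1h4d (chromosome 13, 23581598 to 23582735, + strand) had 2.09, 1.53, 1.17 and 1.67 CPM in E1KO, against 1.63, 1.52, 1.73 and 1.64 CPM in E1WT. Hist4h4 (chromosome 6, 136801553 to 136804415, - strand) had 0.585, 1.47, 0.649 and 0.789 CPM in E1KO, against 0.708, 0.490, 0.917 and 1.34 CPM in E1WT. Both overlapped between the groups, with log2 folds of -0.07 ± 0.24 and -0.06 ± 0.41 SE and edgeR adjusted p of 0.861 and 0.938. Hist2h4 (chromosome 3, 96261682 to 96263311, - strand) had 0.835, 0.561, 0.325 and 0.728 CPM in E1KO, against 0.814, 0.735, 1.62 and 0.793 CPM in E1WT. Its highest value was that of E1WT replicate 3, with overlap among the rest (log2 fold -0.73 with a 95% interval of -1.599 to 0.13, edgeR adjusted p = 0.208). The summed H3 level was 2.98 ± 0.969 CPM in E1KO and 3.44 ± 0.631 CPM in E1WT, and the summed H4 level 9.99 ± 1.56 CPM in E1KO and 9.05 ± 0.965 CPM in E1WT (SD, n = 4 each).

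**Figure D4:**
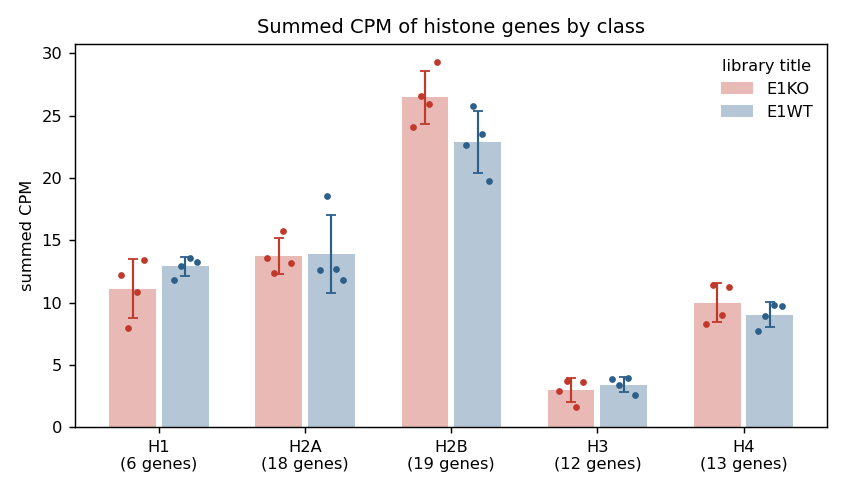
Summed CPM of all genes of each histone class by library title; bars are means of 4 libraries, error bars the SD, and points single libraries, with E1KO in red and E1WT in blue. The H2B sums average 26.5 CPM in E1KO and 22.9 CPM in E1WT, and the libraries of both titles overlap in every class.

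By cluster, the summed level on chromosome 13 was 31.1 ± 3.26 CPM in E1KO and 30.9 ± 1.34 CPM in E1WT, that on chromosome 3 was 19.7 ± 1.75 CPM in E1KO and 17.3 ± 2.14 CPM in E1WT, and that on chromosome 11 was 12.6 ± 2.19 CPM in E1KO and 13.2 ± 3.21 CPM in E1WT (SD, n = 4 each). All overlapped. The 2 called genes are both in the chromosome 3 cluster, where 4 of 10 genes were tested. Without Hist2h2be the sum over the other 67 genes was 47.1 ± 2.50 CPM in E1KO and 49.3 ± 4.62 CPM in E1WT (SD, n = 4 each).

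Genes that act in S phase beside the histones were set next to them. Of 28 such genes 15 rose and none fell in E1KO, with a median log2 fold of 0.44, beside -0.15 for the 29 tested histone genes. The difference between the lists was not tested. Over all tested genes 12.2% were higher and 11.1% lower, the shares to set beside this and each list below. The 28 genes summed to 1684 CPM in E1KO and 1288 CPM in E1WT, against 64.3 and 62.3 CPM for all 68 histone genes. The numbers called are therefore not at like levels. Cdc6, which loads the replicative helicase, had 13.5, 13.5, 16.1 and 16.2 CPM in E1KO, against 7.501, 7.10, 6.67 and 6.89 CPM in E1WT (log2 fold 1.01 ± 0.10 SE, edgeR adjusted p = 5.4e-05). Ccna2, the S and G2 phase cyclin A2, averaged 32.2 ± 1.17 CPM in E1KO and 18.8 ± 1.92 CPM in E1WT, Mcm7, a helicase subunit, 126 ± 4.96 CPM in E1KO and 84.2 ± 3.68 CPM in E1WT, and Rrm1, a subunit of the enzyme that makes deoxyribonucleotides, 112 ± 2.09 CPM in E1KO and 75.5 ± 2.51 CPM in E1WT (SD, n = 4 each). None of these genes overlapped between the groups, and all 3 passed the test (log2 folds 0.71, 0.51 and 0.50). Of the 29 histone genes, 10 had a 95% interval wholly below 0.44: Hist1h1c, Hist1h1d, Hist1h1e, Hist1h2bc, Hist1h3f, Hist2h2ac, Hist2h2bb, Hist2h4, Hist3h2a and Hist3h2ba. The other 19 intervals held that value. The share of all tested genes with an interval below 0.44 is not given here, and their median log2 fold was 0.01. The value 0.44 is itself an estimate. The count of 10 therefore does not set the histone genes apart from other genes, and it is no test against the S phase list.

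Genes that transcribe and process histone mRNA were mostly not called. Of 21 tested, 2 rose and none fell (median log2 fold 0.01). Slbp, the stem-loop-binding protein, had 56.8, 64.4, 60.1 and 56.1 CPM in E1KO, against 42.4, 46.7, 42.1 and 41.6 CPM in E1WT (log2 fold 0.40 ± 0.06 SE, edgeR adjusted p = 0.00102). Every E1KO library was above every E1WT library. Cpsf2, a subunit of the complex that cuts histone pre-mRNA, averaged 90.6 ± 1.95 CPM in E1KO and 73.0 ± 4.68 CPM in E1WT (SD, n = 4 each; log2 fold 0.25 ± 0.06 SE, edgeR adjusted p = 0.0115). Npat, the co-activator of histone gene transcription, averaged 46.0 ± 2.83 CPM in E1KO and 45.7 ± 4.396 CPM in E1WT, with overlap (edgeR adjusted p = 0.674).

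Of 21 histone chaperones and importers, 7 rose and 2 fell (median log2 fold 0.09). The number higher was 3 without E1KO replicate 2, E1KO 4 or E1WT 1 and 4 without E1WT 3, and the number lower was 1 without any of these or E1KO 3 or E1WT 4. Chaf1a, the large subunit of the CAF-1 complex that deposits H3 and H4 on copied DNA, averaged 23.0 ± 1.83 CPM in E1KO and 14.6 ± 1.15 CPM in E1WT (SD, n = 4 each; log2 fold 0.60 ± 0.10 SE, edgeR adjusted p = 0.00102). Its partner subunit Chaf1b and the H3-H4 chaperone Asf1b rose by log2 folds of 0.38 ± 0.09 and 0.53 ± 0.11 SE (edgeR adjusted p = 0.00968 and 0.00463). Ipo4, an importin that carries H3 and H4, fell to 42.9 ± 2.68 CPM in E1KO, against 56.4 ± 2.48 CPM in E1WT (SD, n = 4 each; log2 fold -0.46 ± 0.06 SE, edgeR adjusted p = 0.000373).

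Replication-independent histone variants come from single genes outside the clusters, whose mRNAs mostly carry poly(A) tails. The list used here also holds H2afx, in which the stem-loop motif was found. Of 10 tested, 4 rose and none fell (median log2 fold 0.18); 2 were higher without E1KO replicate 3 or E1WT 3 and 1 without E1KO 4. H2afz, which codes for H2A.Z, had 224, 259, 322 and 287 CPM in E1KO, against 157, 193, 168 and 136 CPM in E1WT (log2 fold 0.68 ± 0.11 SE, edgeR adjusted p = 0.0015). Every E1KO library was above every E1WT library. H2afx, the variant phosphorylated at DNA breaks, averaged 68.9 ± 3.74 CPM in E1KO and 54.4 ± 4.81 CPM in E1WT, and Cenpa, the centromeric H3 variant, 33.9 ± 4.73 CPM in E1KO and 24.8 ± 2.65 CPM in E1WT (SD, n = 4 each). Their edgeR adjusted p values were 0.0138 and 0.0200; that of H2afx was 0.0558 with the replicate block and 0.0515 without E1KO replicate 4, and that of Cenpa 0.0513 without E1KO 3, 0.0503 without E1KO 4 and 0.0501 without E1WT 3. H1fx, a linker variant, averaged 1.67 ± 0.775 CPM in E1KO and 0.732 ± 0.135 CPM in E1WT (SD, n = 4 each) with overlapping libraries and an edgeR adjusted p of 0.0432, which was lost with the block (0.0835) and without each library but E1KO replicate 1 (0.0519 to 0.146).

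**Figure D5:**
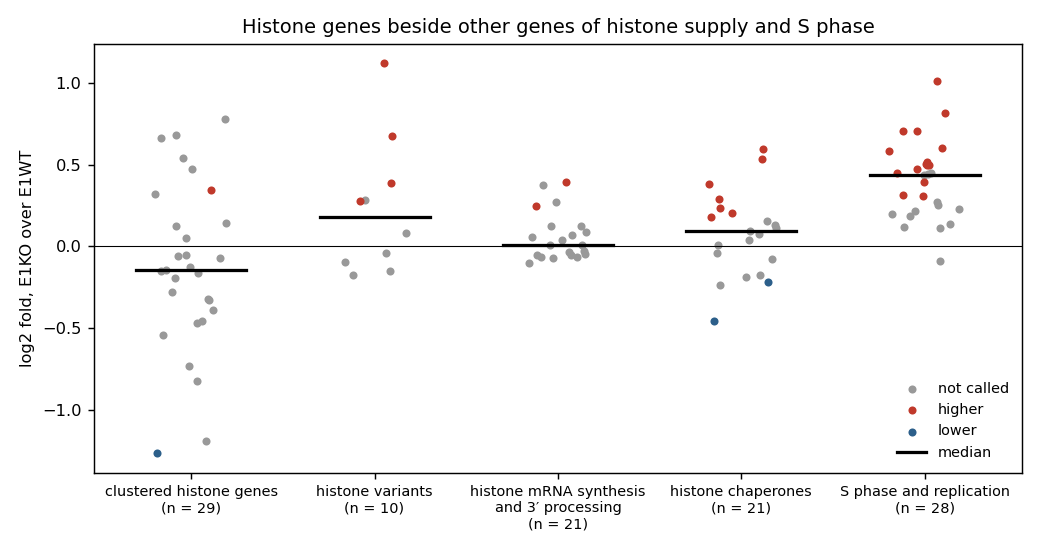
Log2 fold of E1KO over E1WT for each tested gene of the clustered histones and of the lists set beside them; points are genes (red higher, blue lower, grey not called) and black bars are medians. The median is -0.15 for the 29 clustered histone genes and 0.44 for the 28 S phase genes.

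RNAs that end without a poly(A) tail were lower in E1KO where they were called. Of 5 tested, 2 fell and none rose. Malat1, a nuclear RNA with a triple-helical end, averaged 2306 ± 247 CPM in E1KO and 4341 ± 559 CPM in E1WT, and Rpph1, the RNA of RNase P, 2.48 ± 0.591 CPM in E1KO and 4.53 ± 0.279 CPM in E1WT (SD, n = 4 each; log2 folds -0.98 ± 0.11 and -0.93 ± 0.18 SE, edgeR adjusted p = 8.3e-05 and 0.00407). Neither overlapped between the groups. Their part in the histone values was not tested.

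Markers of several other cell types moved with the titles. Of 12 tested erythroid markers 10 rose and none fell, with summed levels of 265 to 302 CPM in E1KO and 94.4 to 121 CPM in E1WT, while 6 haemoglobin symbols were at 0 in all libraries. Among them, Klf1, the erythroid transcription factor, had 11.6, 13.9, 12.7 and 17.1 CPM in E1KO, against 4.56, 4.22, 4.48 and 4.02 CPM in E1WT (log2 fold 1.62 ± 0.13 SE, edgeR adjusted p = 1.3e-05). The carbonic anhydrases Car1 and Car2 and the red cell membrane protein gene Ermap rose by log2 folds of 1.54, 1.198 and 1.45. Shared windows were not counted for the haemoglobin symbols, so their 0 counts do not show that haemoglobin RNA was absent. Of 11 tested monocyte and macrophage markers 6 rose and 1 was called lower, with sums of 115 to 131 CPM in E1KO and 55.1 to 64.5 CPM in E1WT. The marker called lower, C1qb, named after its values were seen, had 0 to 0.0649 CPM in E1KO and 0.353 to 0.637 CPM in E1WT, so it passed the filter on low counts only through E1WT, and none was lower under the mean CPM filter. Dendritic cell markers (7 of 10 rose, 133 to 150 CPM in E1KO and 93.0 to 106 CPM in E1WT), NK cell markers (4 of 7 tested rose, 160 to 168 CPM in E1KO and 132 to 139 CPM in E1WT) and plasma cell markers (1 of 7 rose, 890 to 1103 CPM in E1KO and 597 to 813 CPM in E1WT) did not overlap in their sums. The plasma cell marker that rose was Jchain, which supplied most of that sum; the other 6 summed to 182 to 211 CPM in E1KO and 173 to 181 CPM in E1WT, with none called. B cell markers (1 rose and 2 fell of 10, 278 to 298 CPM in E1KO and 268 to 298 CPM in E1WT), neutrophil markers (1 rose and 3 fell of 9, 42.4 to 47.5 CPM in E1KO and 41.3 to 44.5 CPM in E1WT) and CD8 T cell markers (1 of 2 fell, 20.5 to 28.8 CPM in E1KO and 24.6 to 30.7 CPM in E1WT) overlapped in their sums. CD4 T cell markers, which check the labelled cell type, were present in all libraries, with sums of 4618 to 4891 CPM in E1KO and 4701 to 4926 CPM in E1WT (2 rose and 2 fell of 9). Without E1KO replicate 1 an erythroid marker also fell (1), without E1WT 2 the plasma cell markers had 2 higher, and without E1KO 4 the CD4 markers had 1 higher. The neutrophil markers had 0 higher without E1KO 1, E1KO 4, E1WT 1 or E1WT 3, and 1 lower without E1KO 2, E1KO 3, E1WT 1 or E1WT 3. The part of these cells in the levels of the histone genes, of Slbp and of the S phase genes was not tested.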

How the data were processed

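RNA from naive CD4+ T cells was sequenced as 75-base read pairs, per the labels' protocols. The authors deposited 8 tables of raw counts per gene symbol; the submitters' processing notes name TopHat2 2.1.0, HTSeq 0.9.1 and the build mm10, and no source used here states strandedness or poly(A) selection. The 5 closing non-gene rows (28.2 to 30.8% of all counts listed in E1KO, 33.3 to 37.0% in E1WT) entered neither library sizes nor tests. CPM was computed over gene rows. The titles gave the groups.

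All 8 libraries entered edgeR 4.0.16 (R 4.3.3): TMM scaling, filterByExpr (13333 genes kept), glmQLFit and glmQLFTest without covariates, Benjamini-Hochberg over all tested genes, threshold 0.05. Printed CPM is without TMM, so its ratios differ slightly from the fitted folds. Intervals are 95%. Alternatives were DESeq2 1.42.0, other scalings and filters, a length trend removed, a replicate block and each library left out. Positions, windows, stem-loops and overlaps came from GENCODE M21, promoters from RefSeq; 23376 symbols matched by name, 669 through a synonym and 376 not at all. Depths were 28264655 to 36738202 counts, and floors of 3 counts cover counting error only.

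The members and all gene lists were chosen with earlier results of these data known. Members named with values were the 8 with the highest CPM, those called, the highest per kb in each class, and those of clusters 2, 3 and 4 at 0.5 CPM or more; from the other lists, up to 4 called genes with the smallest p, and Npat, added for its role after its values were seen, while markers of cells other than erythroid ones are given as counts and sums.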

Additional observations from a re-analysis of the deposited data

Results flagged for a closer look

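Among 100 groups of 4 libraries tested for a library far from the other three, 6 stood out, and chance gives about 1 in 20. Hist2h4 had 1.62 CPM in E1WT replicate 3, while the other E1WT libraries had 0.735 to 0.814 CPM. Hist1h1d had 0.898 CPM in E1WT replicate 2, against 1.76 to 1.91 CPM in the others. The summed H2A level was 18.6 CPM in E1WT replicate 2, against 11.8 to 12.7 CPM in the others. In that same library Slbp was at 46.7 CPM (others 41.6 to 42.4 CPM) and Chaf1a at 12.9 CPM (others 14.9 to 15.3 CPM). Uty had 21.8 CPM in E1KO replicate 2, against 16.2 to 16.9 CPM in the other E1KO libraries.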

How the results depend on the processing

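Counts of calls that moved by over 1.5 times are given here. With the replicate number as a block, 0 histone genes were higher, as were 3 chaperones (1 lower), 2 variants, 0 neutrophil markers and 1 CD4 marker; over all genes the block gave 1151 higher and 1005 lower. The numbers share only a number: same-numbered libraries deviated with correlations of 0.014, -0.048, -0.035 and -0.099. No E1KO library correlated best with the E1WT library of its own number. With E1KO 1 and E1WT 4 both left out, 2 histone genes were lower. With the length trend removed, 4 chaperones, 2 variants and 6 CD4 markers were lower and 0 neutrophil markers higher. DESeq2 gave 1 variant and 4 CD4 markers lower. B cell markers had 2 higher under DESeq2, upper-quartile scaling, the mean CPM filter and the length trend removed, and the mean CPM filter gave 0 monocyte markers lower. The causes were not tested.

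Leaving out each library in turn gave 0 to 1 histone genes higher and 1 to 2 lower (Hist1h1d being called as well without E1WT 2). The second gene without E1WT 4, also with E1KO 1 left out, was Hist1h3a (1, 4, 6 and 9 counts in E1KO, 14, 22, 21 and 5 in E1WT), which then passed the filter on low counts only through the E1WT libraries where it was high, so that call is no evidence of a fall. Leaving out each library also gave 3 to 7 chaperones higher and 1 to 3 lower, 1 to 5 variants higher, 0 to 1 erythroid markers lower, 1 to 2 plasma cell markers higher, 0 to 1 neutrophil markers higher and 1 to 2 lower, 1 to 2 CD4 markers higher, and 1194 to 1659 genes higher and 1010 to 1566 lower over all. Directions of uncalled members turned: log2 folds ranged from -0.26 to 0.095 for Hist3h2a, -0.13 to 0.061 for Hist1h2bc, -0.23 to 0.058 for Hist1h4d, -0.52 to 0.12 for Hist1h3e and -0.42 to 0.26 for Hist4h4, which had 0.40 with E1KO 1 and E1WT 4 left out. Of 97 alternative values of the ratios of the sums, 97 stayed within 1 SD of the ratio. Most of them left out 1 library, which moves a mean of 4 libraries by less than 1 SD whatever its value. The count is therefore no test of their stability. Windows could be counted only against transcripts, since no genome sequence was used here; that choice was made after seeing the data. Depth limits what can be said of the 45 genes under 0.5 CPM.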
